A study of Homo sapiens with 4 samples.

Results

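The 10 genes described here are SESN3, C10orf10 and GPCPD1, together with the insulin and FOXO signaling genes IRS1, IRS2, INSR, FOXO1, FOXO3, IGFBP1 and TXNIP, out of 58302 genes measured in HepG2 cells. HepG2 is an established line of human liver cancer cells, labelled wild type. The first 3 genes were selected on their FPKM differences, which were higher with melatonin than with DMSO at both 24 h and 48 h, so their melatonin differences are a description of the selection and not a finding. The other 7 genes were placed beside them for their known roles, with the data of these libraries already known. All 10 genes were present in each library.

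Polyadenylated RNA was sequenced from wild-type HepG2 cells given DMSO, the solvent, for 24 h, melatonin at 1 mM for 24 h, DMSO for 48 h, or melatonin at 1 mM for 48 h. Each of these 4 conditions was 1 library of 1 culture, and all were grown in the same serum-containing medium. The study asked how melatonin, a pineal hormone, alters RNA expression and splicing in liver cancer cells. With 1 library per condition the sequencing holds no replicate check, and no p-value was computed. Differences between these libraries cannot be told apart from differences between cultures. Separately, the paper ran RT-qPCR with repeated measurements on some randomly chosen genes at both times. It names SESN3 and GPCPD1 among them, but not C10orf10, and reports changes that matched its sequencing. Those RT-qPCR values were not examined here.

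FOXO proteins are forkhead transcription factors that insulin restrains. Insulin binds its receptor, INSR, the docking proteins IRS1 and IRS2 pass the signal to phosphoinositide 3-kinase and AKT, and AKT phosphorylates FOXO1 and FOXO3 so that they leave the nucleus. In hepatocytes, nuclear FOXO1 is known for raising genes of fasting such as IGFBP1, IRS2 and the gluconeogenic enzymes, and SESN3, C10orf10 (also called DEPP1) and TXNIP are known as FOXO-responsive genes in other cells. RNA levels do not report the phosphorylation or location of FOXO proteins.

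The values are FPKM, that is, fragments divided by the length of the gene in kilobases and by the size of the library. FPKM times gene length came out as whole reads (tolerance 0.01 read) for 100% of the non-zero values, and so each value is given with its reads or with an exact Poisson interval (95%) that covers counting error only. Reads on genes were 21616676 to 23086025 per library, and 3 reads on a gene of 1 kb corresponded to an FPKM of 0.135 to 0.163. Mitochondrial genes held 9.77% to 20.0% of the reads, more at 24 h than at 48 h. With these genes left out and the rest rescaled to TPM, the log2 differences of melatonin over DMSO at 24 h and 48 h were 1.41 and 2.43 for SESN3, 1.54 and 1.86 for C10orf10, 1.87 and 2.39 for GPCPD1, and 1.05 and 0.99 for IGFBP1. Of the 14 hepatocyte markers, all 14 had an FPKM of at least 1, with albumin at 2717 to 3343, while 2 of 10 markers of other cell types did (ACTA2 and EPCAM).

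The sequences upstream of C10orf10 and TXNIP hold the forkhead letters, and that of SESN3 does not. The core motif GTAAACA, searched on both strands, is the canonical FOXO-binding core. It was found in 3.42% of 35116 RefSeq promoter windows of 300 bases (250 before to 50 after a transcript start). For the 10 genes, 8 had a window (all but GPCPD1 and IGFBP1), with 12 windows in all, of which 4 were for FOXO3 and 2 for TXNIP. The core occurred in 2 of the 12 windows, those of C10orf10 and TXNIP, and SESN3 is shown beside them as the gene with the widest range of levels. Each line gives bases -250 to -101 from the RefSeq start (GRCh38.p14, 5′ to 3′ on the gene's strand), with the match in capitals. They are chr11:95232576-95232725 (minus strand) for SESN3, chr10:44978910-44979059 (minus strand) for C10orf10 and chr1:145996680-145996829 (minus strand) for TXNIP.
SESN3: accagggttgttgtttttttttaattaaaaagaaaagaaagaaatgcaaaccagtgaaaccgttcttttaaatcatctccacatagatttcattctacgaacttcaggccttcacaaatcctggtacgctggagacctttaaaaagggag
C10orf10: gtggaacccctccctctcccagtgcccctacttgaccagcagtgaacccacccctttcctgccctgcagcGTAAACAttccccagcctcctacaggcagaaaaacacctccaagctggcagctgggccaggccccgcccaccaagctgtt
TXNIP: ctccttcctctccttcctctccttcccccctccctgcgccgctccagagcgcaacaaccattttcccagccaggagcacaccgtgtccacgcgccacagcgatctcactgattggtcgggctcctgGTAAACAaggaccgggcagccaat

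In C10orf10 the match spans bases -180 to -174, and in the second window of TXNIP bases -124 to -118. The insulin response core CAAAACA was found only in the window of IRS2, as TGTTTTG at bases -40 to -34 on the opposite strand, against 4.92% of all windows. The E-box CACGTG, the core of the element read by carbohydrate-responsive factors, was found only in the window of IRS1, at bases 36 to 41 after the start, against 7.26% of all windows. C10orf10 and TXNIP share the forkhead letters. Their RNA levels are given below, those of TXNIP from few reads, and a link between the letters and the levels was not tested. A match is a description of letters and not a measured binding site.

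SESN3 encodes a sestrin, a stress-responsive protein that restrains mTORC1. It lies on chr11:95165513-95232541 (hg38, minus strand). SESN3 was at 0.0824 FPKM (16 reads) with DMSO at 24 h and 0.597 (128 reads) with melatonin at 24 h. It was at 0.0992 (23 reads) with DMSO at 48 h and 1.49 (349 reads) with melatonin at 48 h. The DMSO libraries were both low, with overlapping intervals (0.0471 to 0.134 and 0.0629 to 0.149), and both melatonin libraries were above them, with the 48 h library highest. The melatonin to DMSO ratio of FPKM was 7.24 (95% interval 4.29 to 13.0) at 24 h and 15.0 (9.83 to 24.0) at 48 h. On the log2(FPKM + 1) scale, which understates low genes, the differences were 0.56 and 1.18, and at 24 h SESN3 was not tested, because a gene was tested when at least 1 of the compared libraries reached an FPKM of 1. Antisense genes share 0.926% of its exon bases in GENCODE 44, and the antisense AP000787.1 held 1 to 4 reads per library.

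C10orf10 encodes a small protein induced by progesterone and by fasting. It lies on chr10:44970981-44978810 (hg38, minus strand). Its FPKM was 5.43 (297 reads) with DMSO at 24 h and 16.3 (987 reads) with melatonin at 24 h. At 48 h it was 19.1 (1251 reads) with DMSO and 67.5 (4464 reads) with melatonin. The 4 intervals did not overlap, and the DMSO library of 48 h was already above the melatonin library of 24 h. The ratio was 3.01 (2.64 to 3.44) at 24 h and 3.52 (3.31 to 3.76) at 48 h for melatonin over DMSO, while for 48 h over 24 h it was 3.53 (3.10 to 4.02) in the DMSO pair and 4.13 (3.86 to 4.43) in the melatonin pair. With the deposited FPKM, the difference between melatonin and DMSO at a given time was therefore close in size to the difference between the times. After rescaling to TPM the time differences were the larger. Their log2 values were 2.23 in DMSO and 2.29 in melatonin, against 1.68 at 24 h and 1.74 at 48 h for melatonin over DMSO. By FPKM, C10orf10 moved from rank 6432 of all genes with DMSO at 24 h to rank 432 with melatonin at 48 h. It lies within RASSF4, on the opposite strand, with which it shares 23.3% of its exon bases, and the strand setting of the authors' counting is not stated. RASSF4 was at 5.49, 5.44, 4.48 and 5.03 FPKM (DMSO and melatonin at 24 h, then DMSO and melatonin at 48 h), with log2 differences of -0.01 at 24 h and 0.14 at 48 h.

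GPCPD1 encodes a phosphodiesterase that splits glycerophosphocholine into choline and glycerol phosphate. It lies on chr20:5544404-5611026 (hg38, minus strand). At 24 h GPCPD1 was at 1.73 FPKM (239 reads) with DMSO and 6.97 (1064 reads) with melatonin, and at 48 h at 0.763 (126 reads) with DMSO and 4.78 (799 reads) with melatonin. Both melatonin libraries were above both DMSO libraries, and within each treatment the 48 h library was the lower. The melatonin to DMSO ratio was 4.03 (3.50 to 4.66) at 24 h and 6.26 (5.18 to 7.62) at 48 h. The 48 h to 24 h ratio was 0.441 (0.353 to 0.550) in DMSO, against 0.686 (0.625 to 0.753) in melatonin, so GPCPD1 went the other way in time from C10orf10.

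**Figure D1:**
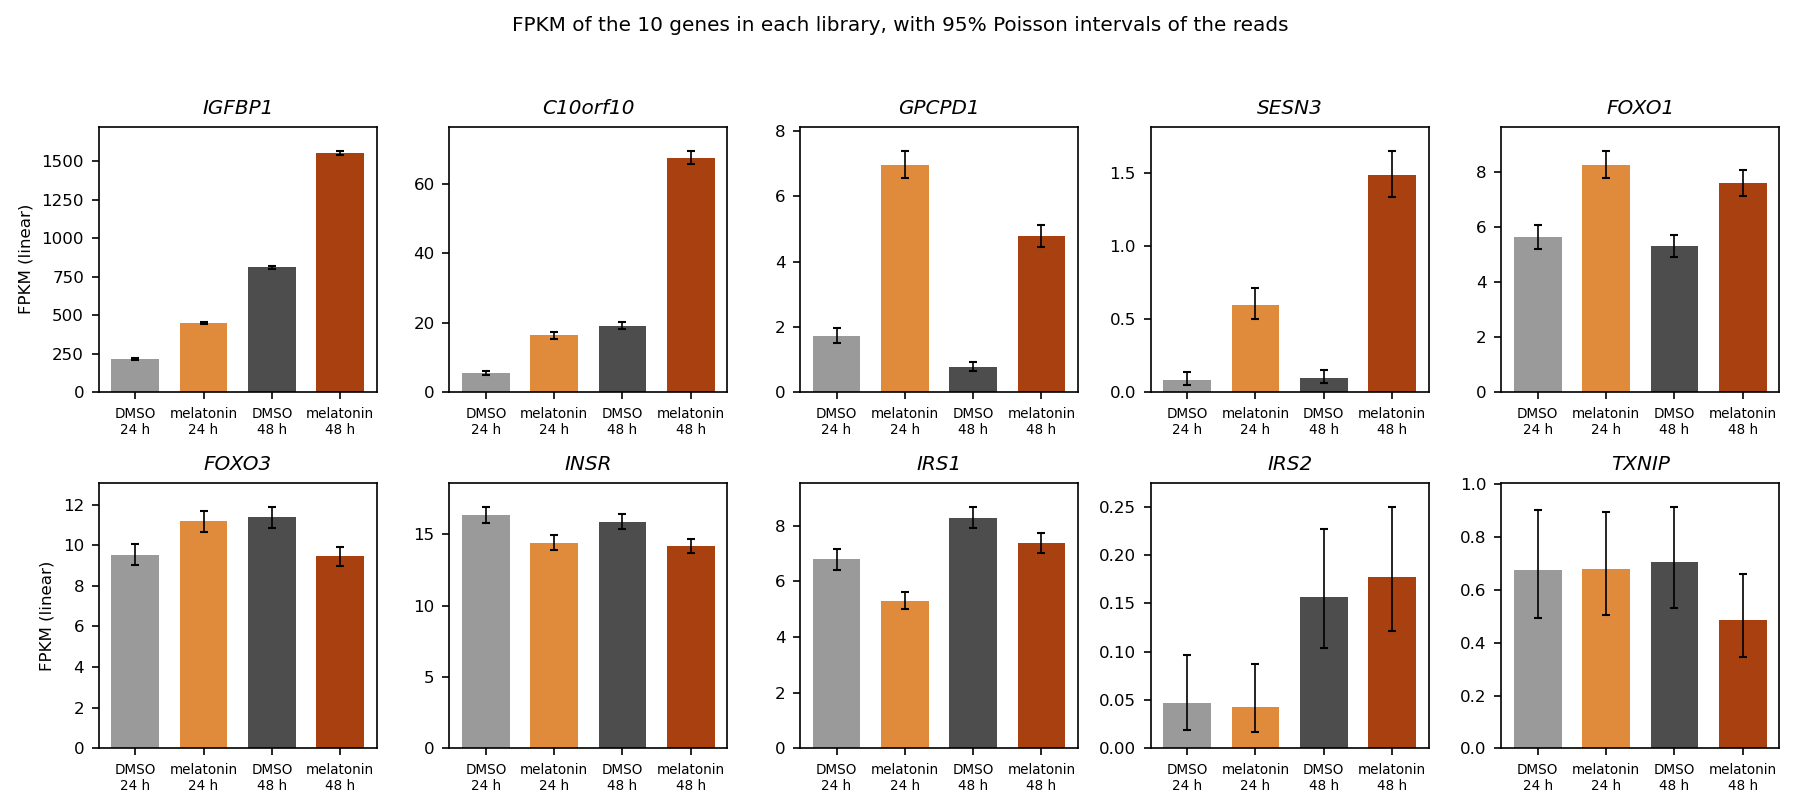
Level of each of the 10 genes in the 4 libraries. Bars are FPKM on a linear axis from 0, 1 library each, and error bars are exact 95% Poisson intervals, which cover counting error only. C10orf10 and IGFBP1 climb from DMSO at 24 h to melatonin at 48 h, while SESN3 and GPCPD1 stand high in the melatonin libraries at both times.

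IGFBP1 encodes a secreted binding protein of insulin-like growth factors and is the textbook hepatic gene that insulin lowers through FOXO1. It lies on chr7:45888357-45893668 (hg38, plus strand). At 24 h IGFBP1 was at 216 FPKM (6561 reads) in the DMSO library and 450 (15091 reads) in the melatonin library. At 48 h it was at 811 (29412 reads) and 1557 (57151 reads). The order of the libraries was that of C10orf10, with no overlap between the intervals. IGFBP1 was the gene of rank 138 by FPKM with DMSO at 24 h and of rank 24 with melatonin at 48 h. Its melatonin to DMSO ratio was 2.08 (2.02 to 2.14) at 24 h and 1.92 (1.89 to 1.95) at 48 h, which put it just past 2-fold at 24 h and just short of it at 48 h. From 24 h to 48 h the ratio was 3.75 (3.65 to 3.85) in DMSO, against 3.46 (3.40 to 3.52) in melatonin.

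INSR, the insulin receptor, was at 16.3 FPKM with DMSO and 14.4 with melatonin after 24 h, and at 15.9 and 14.2 after 48 h. The libraries differed little, and INSR had the narrowest range of the 10 genes, its highest FPKM being 1.15 times its lowest. The melatonin to DMSO ratio was 0.883 (0.839 to 0.928) at 24 h and 0.893 (0.852 to 0.937) at 48 h, and the ratio of these ratios was 1.01 (0.945 to 1.08). INSR lies on chr19:7112255-7294034 (hg38, minus strand).

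IRS1, the main docking protein of the receptor in many tissues, was at 6.78 FPKM with DMSO and 5.30 with melatonin after 24 h, and at 8.28 and 7.37 after 48 h. It was the lower in melatonin at each time, with ratios of 0.782 (0.720 to 0.849) and 0.890 (0.832 to 0.953). IRS2, the docking protein that FOXO1 is known to raise in liver, was near the detection floor, with 7 reads in each 24 h library, 28 with DMSO at 48 h and 32 with melatonin at 48 h. Its FPKM was 0.0469, 0.0424, 0.157 and 0.177 in the same order. The melatonin to DMSO ratio of IRS2 was 0.905 (0.271 to 3.02) at 24 h and 1.13 (0.658 to 1.95) at 48 h, so a difference was not detectable at this depth. Against time, the IRS2 ratio was 3.35 (1.43 to 9.08) in DMSO, against 4.18 (1.81 to 11.2) in melatonin. IRS1 lies on chr2:226731317-226799759 and IRS2 on chr13:109752698-109786568 (hg38, both minus strand).

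FOXO1, the main FOXO factor of glucose production in liver, was at 5.64 FPKM (645 reads) with DMSO and 8.27 (1045 reads) with melatonin after 24 h, and at 5.30 (724 reads) and 7.60 (1052 reads) at 48 h. Both melatonin libraries were above both DMSO libraries, and the ratios of 1.47 (1.33 to 1.62) and 1.44 (1.30 to 1.58) were nearly the same, although neither reached 2-fold. The ratio of the ratios was 0.979 (0.854 to 1.12), and against time FOXO1 had ratios of 0.940 (0.844 to 1.05) in DMSO and 0.920 (0.843 to 1.00) in melatonin. These time ratios lay above 1 after rescaling to TPM and with the library size taken as the sum of reads on genes. FOXO1 lies on chr13:40469953-40666597 (hg38, minus strand). In GENCODE 44, whose FOXO1 model differs (5957 bp of exons against the deposited 6232 bp), it shares 22.7% of its exon bases with another gene of the same strand. That gene is not among those overlapping FOXO1 in the deposited coordinates. Reads of the shared bases cannot be assigned to one of these genes. The overlapping LINC00598 held 25 to 51 reads per library.

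FOXO3, a broadly expressed FOXO factor, was at 9.54 FPKM (1352 reads) with DMSO and 11.2 (1750 reads) with melatonin after 24 h, and at 11.4 (1925 reads) with DMSO and 9.45 (1621 reads) with melatonin at 48 h. Melatonin was the higher at 24 h and the lower at 48 h, with ratios of 1.17 (1.09 to 1.26) and 0.832 (0.778 to 0.889). The 48 h ratio was 0.710 (0.644 to 0.782) of the 24 h ratio, by counting error only. FOXO3 lies on chr6:108559835-108684774 (hg38, plus strand). Its pseudogene FOXO3B, a near copy on chromosome 17, held 60 to 91 reads per library, and FOXO1B held 0 reads in each library.

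TXNIP encodes an alpha-arrestin that binds thioredoxin and limits glucose uptake. It lies on chr1:145992435-145996600 (hg38, minus strand). TXNIP was at 0.676 FPKM (45 reads) with DMSO and 0.680 (50 reads) with melatonin after 24 h, and at 0.704 (56 reads) and 0.485 (39 reads) at 48 h. The 4 intervals overlapped, with melatonin to DMSO ratios of 1.01 (0.659 to 1.54) at 24 h and 0.688 (0.445 to 1.05) at 48 h.

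**Figure D2:**
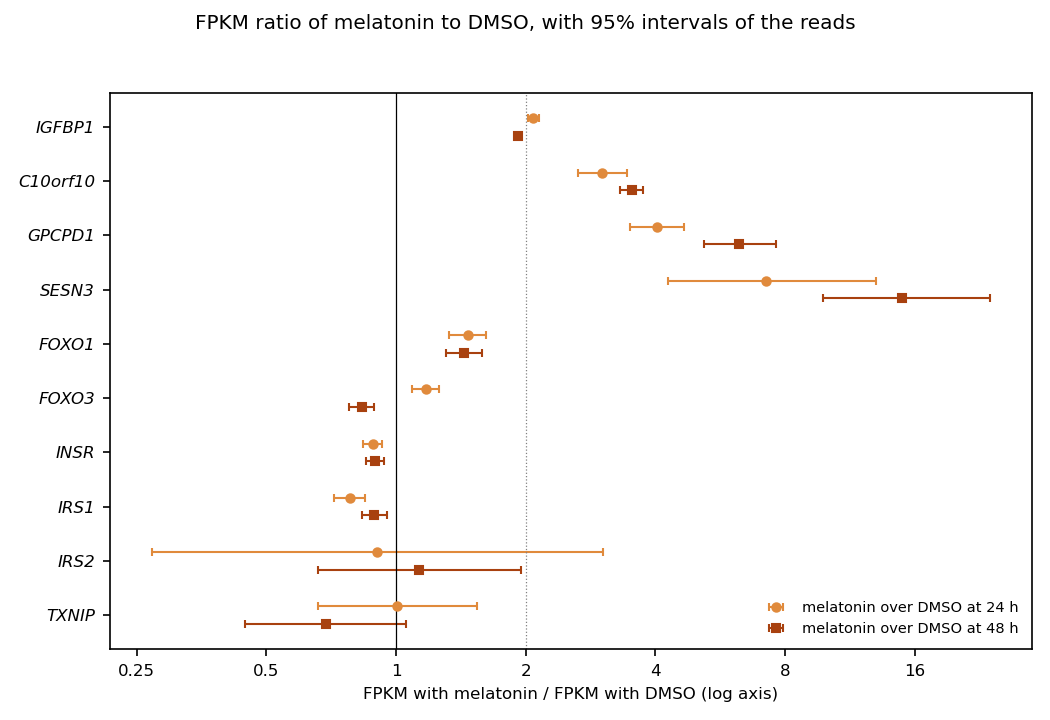
Melatonin to DMSO ratio of FPKM for the 10 genes, on a log axis, with circles for 24 h and squares for 48 h. Lines are 95% conditional binomial intervals of counting error. SESN3, C10orf10, GPCPD1 and IGFBP1 lie to the right of the other genes at both times, INSR and IRS1 lie just below 1, and FOXO3 changes sides.

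At 24 h, 7 of the 10 genes were tested and 3 of them (C10orf10, GPCPD1, IGFBP1) were higher by at least 2-fold, beside 1.42% of all 13582 genes tested and 0.191% of the protein-coding ones. None was lower by 2-fold, beside 2.93% of all and 0.439% of protein-coding genes. At 48 h, 3 of 8 tested (SESN3, C10orf10, GPCPD1) were higher, beside 2.39% of all 13805 genes and 1.03% of protein-coding ones, and none was lower, beside 3.32% and 1.36%. The selection used these contrasts for 3 of the genes and was made with all results known, so nothing is read from these counts. Among the 7 genes it did not pick by level, 1 (IGFBP1) was past 2-fold at 24 h and 0 at 48 h. With the plain FPKM ratio of 2 and at least 50 reads in either library, SESN3 joined at 24 h, giving 4 of 9 genes beside 0.938% of all genes. By the same rule 3 of 9 were higher at 48 h, beside 4.33% of all genes.

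Between the times, C10orf10 and IGFBP1 were the members past 2-fold. With DMSO, 2 of 7 tested (C10orf10 and IGFBP1) rose by at least 2-fold from 24 h to 48 h, beside 3.5% of all genes, and none fell, beside 4.24%. With melatonin, 2 of 8 (the same genes) rose, beside 2.45%, and none fell, beside 1.71%. These calls are on the log2(FPKM + 1) scale. The plain ratios of GPCPD1 in DMSO, 0.441, and of SESN3 in melatonin, 2.49 (2.03 to 3.07), were also past 2-fold, where the log2(FPKM + 1) differences were -0.63 and 0.64. The 2 time comparisons and the 2 melatonin comparisons share libraries, so they are given side by side and not correlated.

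The melatonin ratio at 48 h over that at 24 h was 2.07 (1.06 to 4.04) for SESN3, 1.55 (1.23 to 1.97) for GPCPD1 and 1.17 (1.01 to 1.35) for C10orf10. For IGFBP1 it was 0.922 (0.893 to 0.952). These intervals hold counting error only and say nothing of the spread between cultures.

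For the 3 selected genes, the nearest genes in profile were sought among 12830 genes with at least 50 reads in 1 library, by Euclidean distance of the 4 log2(FPKM + 1) values after subtracting each gene's mean. For C10orf10 the nearest was IGFBP1 (distance 0.642), followed by FST (0.722), CYP1A1 (0.739), AL031058.1 (0.826) and CCL16 (0.942). FST, which encodes the activin-binding follistatin, had 15.2, 48.0, 74.0 and 126 FPKM in the order DMSO and melatonin at 24 h, DMSO and melatonin at 48 h. Like C10orf10, it was higher in each later library of that order.

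For GPCPD1 the nearest were DHRS2 (0.326), the pseudogene LSM12P1 (0.371), LDHD (0.483) and AC104066.1 (0.488). DHRS2, a short-chain dehydrogenase, was at 237, 558, 147 and 553 FPKM in that order of libraries, high with melatonin and lower with DMSO at both times as GPCPD1 was. For SESN3, whose low level compresses its profile on this scale, the nearest were TGFA (0.0633), FJX1 (0.105), PTPRN2 (0.123), MFGE8 (0.169) and RECK (0.199). TGFA, a ligand of the EGF receptor, was at 4.87, 7.69, 5.26 and 12.4 FPKM. Each profile has 4 points, 1 per library.

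**Figure D3:**
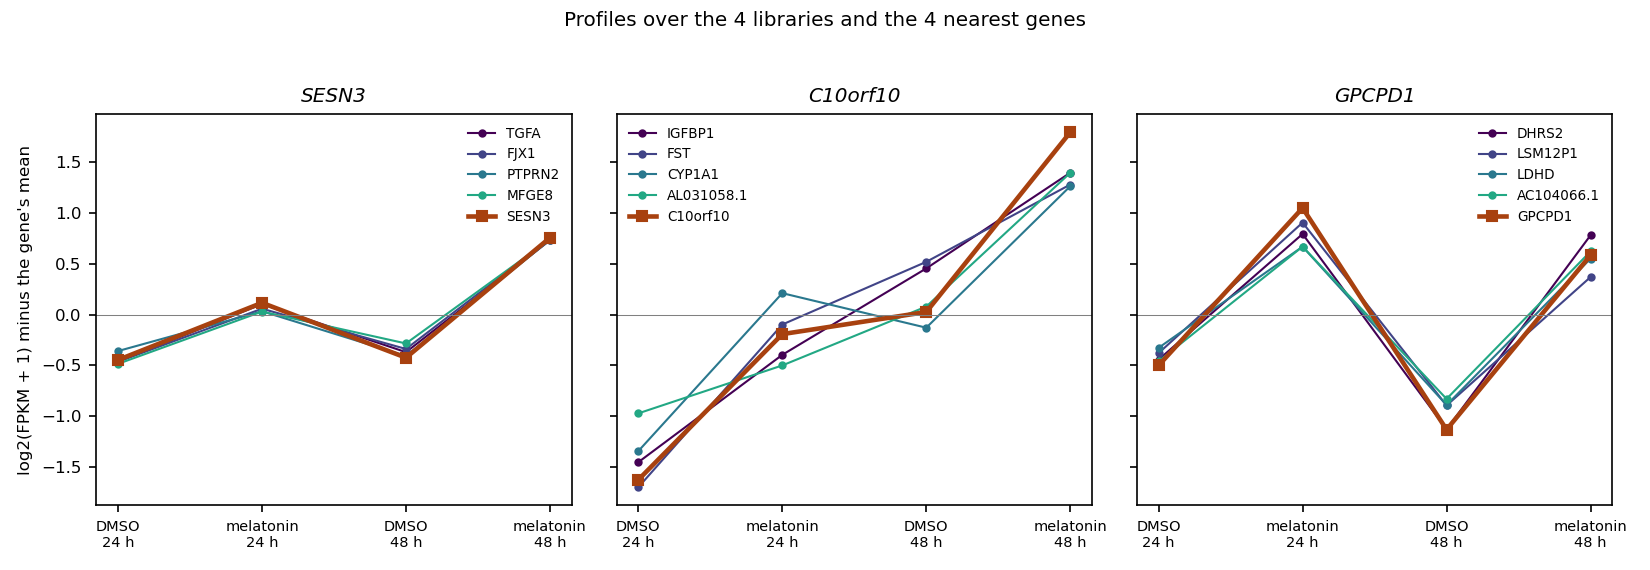
Mean-centred log2(FPKM + 1) in the 4 libraries for SESN3, C10orf10 and GPCPD1, 1 panel each, with the 4 genes nearest in profile. IGFBP1 follows C10orf10 at a distance of 0.642, and the 4 genes near GPCPD1 share its fall from melatonin at 24 h to DMSO at 48 h.

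The other genes of the pathway were taken from 7 lists of 197 genes, all of which were matched in the files. Beyond INSR, IRS1 and IRS2, the insulin pathway list (40 genes, from receptors to AKT and mTORC1) had 33 tested at each time, with 0 past 2-fold in either direction and medians of 0.07 at 24 h and 0.00 at 48 h. Of protein-coding genes, 0.191% were higher and 0.439% lower at 24 h, and 1.03% and 1.36% at 48 h. With shares this small, a count of 0 in a list of this size is not read as a result. The kinase AKT1 was at 13.4, 12.3, 10.7 and 10.7 FPKM in the same order of libraries. IGF1R, the receptor nearest to INSR in family, was at 12.8, 15.7, 20.8 and 23.2 FPKM, and its melatonin ratios of 1.23 (1.17 to 1.29) and 1.12 (1.08 to 1.15) lay on the opposite side of 1 from those of INSR.

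Among the FOXO family and its regulators (30 genes), 28 were tested at each time and 0 were past 2-fold on the log2(FPKM + 1) scale, with medians of -0.05 and -0.06. Beside the shares of protein-coding genes given for the insulin list, this 0 is not read as a result either. FOXO4, the paralog that is phosphorylated by AKT as FOXO1 is, was at 5.44, 4.41, 10.7 and 5.19 FPKM. Its melatonin ratio was 0.810 (0.693 to 0.948) at 24 h and 0.483 (0.428 to 0.546) at 48 h, so FOXO1, FOXO3 and FOXO4 had ratios above, on both sides of and below 1. At 48 h the log2(FPKM + 1) difference of FOXO4 was -0.92, short of the call although its plain ratio was past 2-fold, and 1 gene of the list was called lower with a pseudocount of 0.1 and with TPM. FOXO6 held 1 to 10 reads per library.

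Of the 44 listed FOXO target genes, 34 were tested at 24 h with 0 past 2-fold, a median of 0.11 and 22 above 0. Over all genes tested at 24 h the median was 0.02, and 53.5% were above 0 (57.9% of protein-coding genes). At 48 h, 52.5% of all genes tested were below 0 (51.0% of protein-coding genes). Of protein-coding genes, 0.191% were higher and 0.439% lower at 24 h. At 48 h, 33 were tested, with 0 higher and 2 lower (CDKN1A and BBC3), beside 3.32% of all genes and 1.36% of protein-coding genes lower, a median of -0.27 against -0.02 over all genes, and 23 below 0. CDKN1A, the cell cycle inhibitor p21, was at 25.3, 16.2, 60.3 and 26.6 FPKM, and BBC3, the apoptosis inducer PUMA, at 6.05, 6.76, 19.1 and 8.44. Both genes are also known targets of p53. They were highest with DMSO at 48 h, and their melatonin ratios at 48 h were 0.441 (0.417 to 0.466) and 0.442 (0.401 to 0.487).

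The same list moved most in DMSO between the times. Of 33 tested, 10 rose by at least 2-fold and 3 fell, which is 30.3% and 9.09% of them, beside 3.5% and 4.24% of all 13854 genes tested, with a median of 0.45 against 0.00 over all genes. The shares of all genes include non-coding genes, and shares of protein-coding genes were not computed between the times. The list was chosen with earlier results of these data known, so these counts are a description only. Under the alternative settings 9 to 16 rose and 2 to 4 fell, with the most rises after rescaling to TPM, under which 80.7% of all calls were higher. The higher ones included BCL6, a transcriptional repressor (log2 difference 1.39), GADD45A, a stress gene (1.17), and ULK1, a kinase that starts autophagy (1.15), and the lower ones included APOC3, an apolipoprotein (-1.83). These examples were chosen after their values were seen. With melatonin, 1 of 34 (G6PC, the glucose-releasing phosphatase) rose from 24 h to 48 h and 1 (APOC3) fell, with a median of 0.12. That is 2.94% each way, near the 2.45% higher and 1.71% lower of all genes tested.

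Some further targets that did not pass 2-fold with melatonin on the log2(FPKM + 1) scale, which understates low genes, are named here after their values were seen. Those given with melatonin ratios had ratios above 1, which is not the rule of the list. At a 1.5-fold threshold 3 of the 34 genes tested were higher and 4 lower at 24 h. At 48 h 2 of 33 were higher and 7 lower. The share of all genes past 1.5-fold is not given here, so these counts show only that both directions occurred. The lowest log2 difference of the list at 24 h was -0.99. PPARGC1A, a coactivator of gluconeogenesis, was at 2.41, 5.54, 6.53 and 9.44 FPKM, with log2 differences of 0.94 at 24 h and 0.47 at 48 h and a plain ratio of 2.30 (2.07 to 2.56) at 24 h. G6PC was at 1.55, 1.62, 3.58 and 7.11 FPKM, and its ratio was 1.04 (0.781 to 1.39) at 24 h and 1.98 (1.71 to 2.31) at 48 h. TNFSF10, the death ligand TRAIL, was at 0.910, 1.83, 0.880 and 2.59 FPKM, with plain ratios of 2.01 (1.47 to 2.79) and 2.95 (2.23 to 3.95). PPARGC1A and G6PC were highest with melatonin at 48 h, as IGFBP1 and C10orf10 were, while CDKN1A, BBC3, BCL6, ULK1 and GADD45A were highest with DMSO at 48 h.

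**Figure D4:**
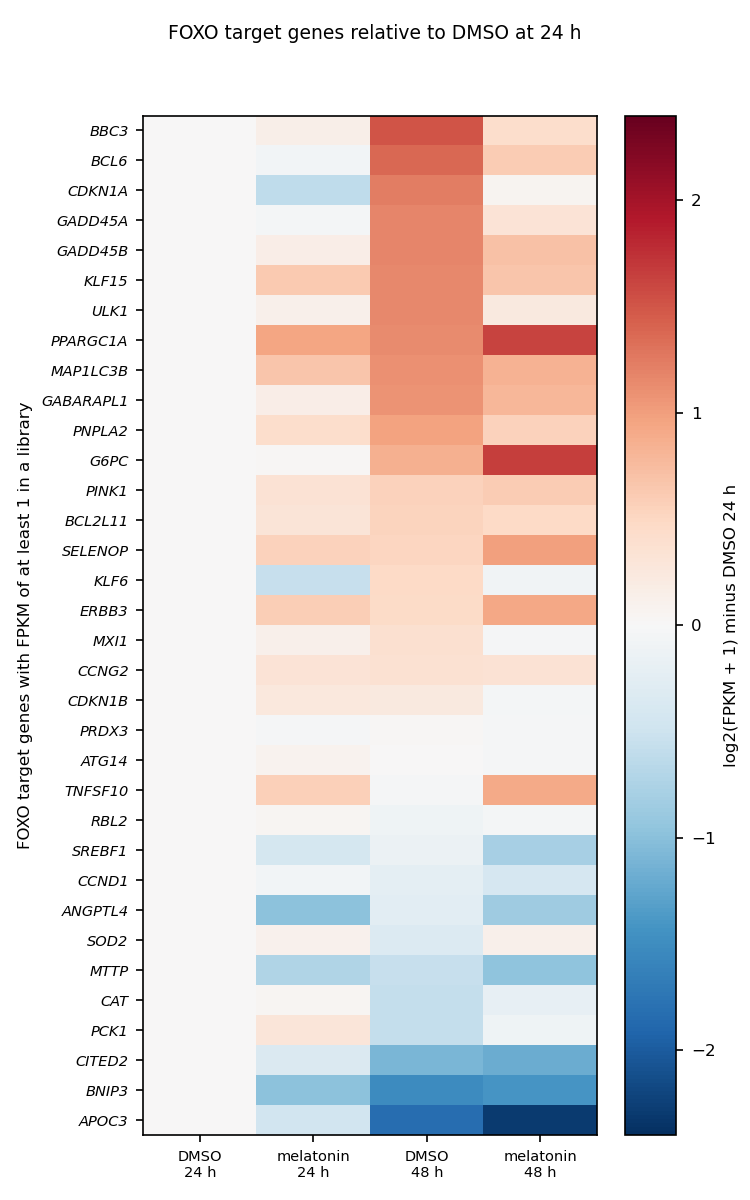
Level of the 34 listed FOXO target genes with an FPKM of at least 1, relative to DMSO at 24 h on the log2(FPKM + 1) scale, with 1 column per library. Values run from -2.29 to 1.67, with APOC3 lowest and G6PC highest, both with melatonin at 48 h.

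The sestrins and the GATOR and Rag proteins, through which sestrins act on mTORC1, had 29 of 32 tested at each time and 0 past 2-fold, with medians of 0.08 and -0.01. Beside the shares of protein-coding genes given for the insulin list, nothing is read from this 0. SESN1 was at 4.04, 4.47, 4.48 and 4.97 FPKM, with ratios of 1.11 (0.963 to 1.27) and 1.11 (0.982 to 1.25). SESN2, the sestrin raised by amino acid and endoplasmic reticulum stress, was at 13.2, 18.2, 14.3 and 12.4, with ratios of 1.38 (1.27 to 1.51) and 0.865 (0.792 to 0.944). SESN3 had the lowest level of the 3 sestrins in each library. Its melatonin ratios were the largest of the 3, but SESN3 was selected for its melatonin differences, so this is not a finding. Those ratios rest on 16 reads with DMSO at 24 h and 23 reads with DMSO at 48 h.

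Of the glycerophosphocholine and choline genes (25), 21 were tested at each time. Over all genes tested, 1.42% were higher and 2.93% lower at 24 h, and 2.39% and 3.32% at 48 h. Beside these shares, nothing is read from the few genes of the list that were called. At 24 h 0 were higher and 1 was lower, PCYT1B, an enzyme of phosphatidylcholine synthesis, with a ratio of 0.321 (0.256 to 0.399). At 48 h SLC44A2 rose with a ratio of 2.83 (2.4 to 3.35) and SLC44A3 fell with 0.340 (0.262 to 0.437), both choline transporter-like proteins. GDE1, which also splits glycerophosphodiesters, was at 15.5, 25.8, 15.3 and 24.5 FPKM, with ratios of 1.66 (1.55 to 1.78) and 1.6 (1.5 to 1.71). GDPD5, of the same enzyme family, was at 12.9, 18.8, 17.9 and 22.3 FPKM. Like GPCPD1, both GDE1 and GDPD5 were higher in both melatonin libraries than in both DMSO libraries, by smaller ratios and at higher levels. GPCPD1 was selected for its difference, and for GDPD5 the order rests on 18.8 against 17.9 FPKM. GDPD1 to GDPD4 of the list are not described here, so these genes do not stand for the family. Of the tested genes of the list, 11 were above 0 and 10 below at 24 h, and 13 above and 8 below at 48 h.

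Of the other IGF binding proteins, 6 of 7 listed were tested at 24 h with 0 past 2-fold, beside 1.42% higher and 2.93% lower of all genes. At 48 h 5 were tested and 1 was higher, beside 2.39% of all genes, in a list too short to compare with that share. That gene was IGFBP3, the main carrier of circulating IGF, at 3.12, 4.53, 2.93 and 11.2 FPKM, with ratios of 1.45 (1.24 to 1.70) and 3.81 (3.35 to 4.35). IGFBP3 lies 18577 bp from IGFBP1 on the opposite strand. With DMSO its 48 h to 24 h ratio was 0.939 (0.793 to 1.11), against 3.75 for IGFBP1. IGFBP4 was at 32.7, 42.1, 30.1 and 48.8 FPKM, and IGFBP2 at 2.46, 2.34, 2.27 and 3.85.

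Among the alpha-arrestins, thioredoxin and glucose transport genes beside TXNIP (19), 16 were tested at each time. At 24 h 1 was higher (ARRDC3) and 1 lower (SLC2A3), beside 1.42% and 2.93% of all genes. At 48 h 0 were past 2-fold on the log2(FPKM + 1) scale, beside 2.39% higher and 3.32% lower of all genes. The medians were 0.02 and -0.29. ARRDC3, an alpha-arrestin related to TXNIP, was at 1.28, 4.25, 0.407 and 1.80 FPKM, with ratios of 3.32 (2.69 to 4.11) and 4.42 (3.18 to 6.28), whereas those of TXNIP held 1 in their intervals. At 48 h ARRDC3 missed the call through the added 1, with a log2 difference of 0.99, and it was called with a pseudocount of 0.1, with TPM and after centring. SLC2A3, a glucose transporter, was at 83.8, 33.3, 25.9 and 16.6 FPKM, with ratios of 0.398 (0.383 to 0.412) and 0.643 (0.610 to 0.678). ARRDC4, another alpha-arrestin that responds to glucose, held 17 to 33 reads per library.

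**Figure D5:**
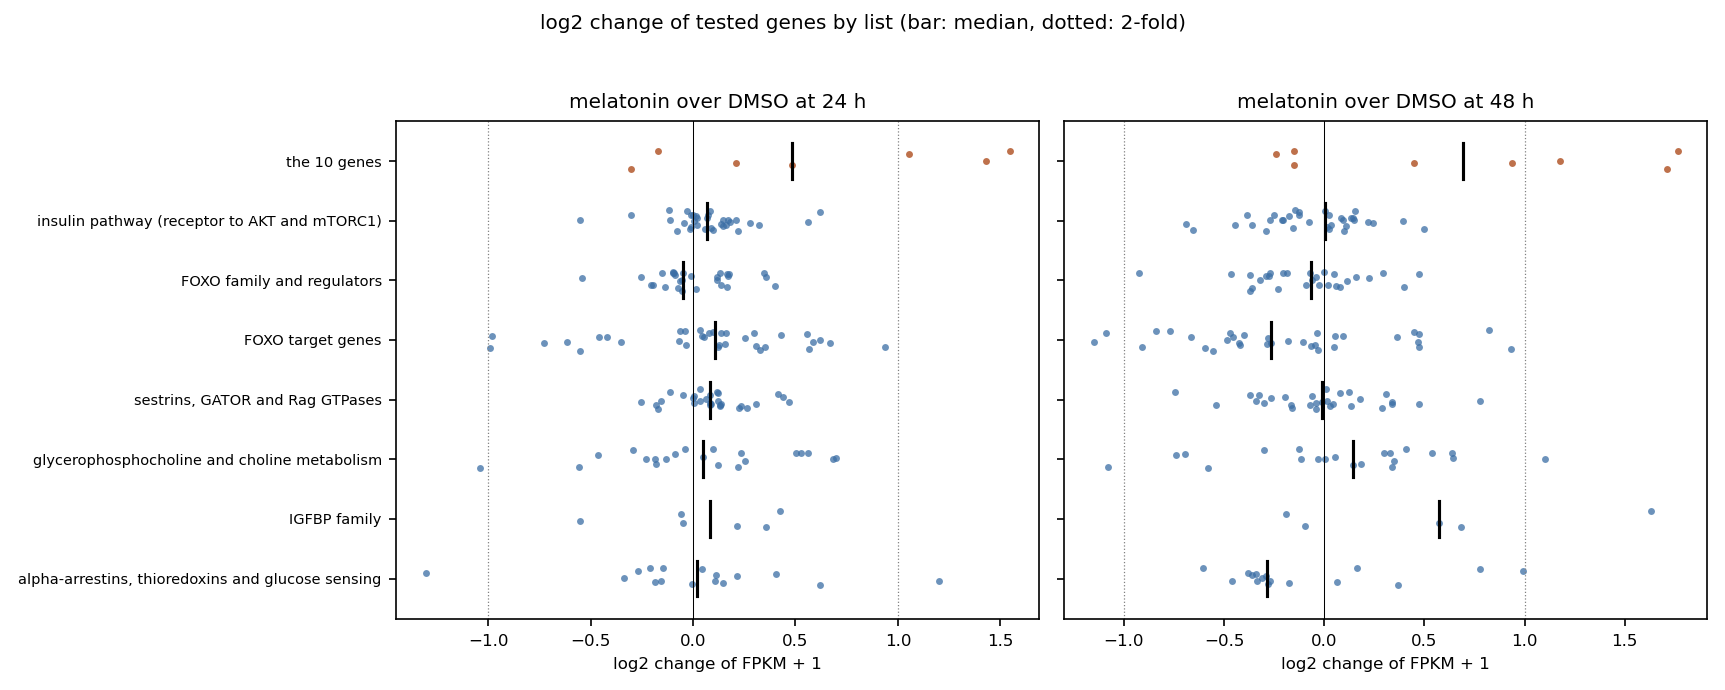
Melatonin over DMSO log2(FPKM + 1) difference of each tested gene by list, at 24 h and at 48 h, with the 2-fold lines marked. Of the 10 genes described here, those past the line lie on the higher side, and the list genes past it are 3 at 24 h and 5 at 48 h.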

How the data were processed

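Polyadenylated RNA of 4 HepG2 cultures was sequenced as paired ends. The authors deposited FPKM per Ensembl gene with the gene length in bp, on hg38. The study's methods name MapSplice and Cufflinks, whereas the submitters' processing notes list Bowtie2 2.0.6, TopHat2 2.0.9, Cufflinks 2.1.1 and Cuffdiff 2.1.1. How the library sizes in the FPKM were set is not given in the sources used here. FPKM times length gave whole reads in each library, which were used for exact Poisson and conditional binomial intervals (95%) and for the floor of 3 reads. The deposited FPKM stayed the measured values.

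Differences were log2((FPKM + 1)/(FPKM + 1)). A gene was tested, against a 2-fold threshold, when its FPKM reached 1 in at least 1 of the compared libraries, with no p-value, since each condition has 1 library. The 10 genes, the lists and the motifs were chosen with earlier results of these data known. Named beside the 10 genes were list genes past 2-fold with melatonin (at most 6 a list), paralogs and kinases of the pathway, overlapping or copied genes and the 5 nearest profiles, of which 1 is not reported here, and examples chosen after seeing values are marked. Exon overlaps came from GENCODE 44 (98.7% of genes matched), promoter windows from RefSeq. The scripts (Python 3.11, numpy 2.4.6, pandas 2.3.3, scipy 1.17.1, matplotlib 3.10.9) were tested on simulated data. The alternatives tried were the pseudocount, the FPKM minimum, the fold threshold, 4 scalings and the plain ratio. Splicing was not analysed here.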

Additional observations from a re-analysis of the deposited data

Results flagged for a closer look

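FOXO3 differed in opposite directions at the 2 times. The log2(FPKM + 1) difference of melatonin over DMSO was 0.21 at 24 h and -0.24 at 48 h, and the counting intervals of the 2 ratios lay on opposite sides of 1. With 1 library per condition, the difference between the times was not tested against the spread between cultures.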

How the results depend on the processing

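No paired analysis was possible because each condition has 1 library, and no replicate could be left out. The direction of the melatonin difference held for SESN3, C10orf10, GPCPD1, IRS1, INSR, FOXO1, FOXO3 and IGFBP1 at both times under every alternative run, while at 24 h those of IRS2 and TXNIP, both near 0, did not. With a pseudocount of 0.1 the log2 difference of SESN3 was 1.93 at 24 h and 2.99 at 48 h. Between the times, a pseudocount of 0.1, TPM without mitochondrial genes and the plain ratio each gave 2 of the 10 genes higher and 1 lower with DMSO, and 3 higher with melatonin, in place of 2 and 2. With a minimum FPKM of 5, 1 of the 10 genes was past 2-fold at 48 h, since SESN3 and GPCPD1 were then not tested. Of the other pathway genes, 3 were past 2-fold at 24 h, 5 at 48 h, 16 between the times with DMSO and 5 between the times in melatonin. For 24 h and 48 h these counts became 7 and 9 with a pseudocount of 0.1, 1 and 3 with a minimum FPKM of 5, 14 and 25 at 1.5-fold, 6 and 10 after rescaling to TPM, 8 and 9 with TPM without mitochondrial genes, and 7 and 12 with the plain ratio, an alternative chosen after seeing the data. Centring on the median gave 5 at 24 h. Between the times, 1.5-fold gave 34 with DMSO and 18 with melatonin, and TPM gave 32 with DMSO. The number tested also changed, to 114 at 24 h and 122 at 48 h with a minimum FPKM of 5, and to 171 and 172 with TPM. Shares of all genes past the fold under these settings are not given, apart from the higher share of the plain ratio. Nothing about the pathway is therefore read from these counts. With TPM the median of all genes was 0.46 for 48 h over 24 h in DMSO, 0.23 for the same in melatonin and 0.17 for melatonin over DMSO at 24 h, against 0.00, -0.04 and 0.02 as reported, and the time differences of FOXO1, INSR and, with melatonin, FOXO3 changed sign under it. The share of all calls that were higher moved from 32.7% to 45.8% at 24 h, from 45.2% to 80.7% with DMSO over time and from 58.9% to 72.9% with melatonin over time. Depth limits IRS2 and TXNIP most, and SESN3 with DMSO.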
